A study of Mus musculus with 21 samples.

Results

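Bile acid synthesis and biliary sterol export in mouse liver were described here through 10 genes: Cyp7a1, Cyp8b1, Cyp27a1, Cyp7b1, Akr1d1, Baat, Slc10a1, Abcb11, Abcg5 and Abcg8. The members were taken by name, as the spots on each array that were not controls and whose gene name was on that list. They were 10 of 19718 genes tested, measured by 11 probes in 20 spots, of which 10 spots were for Cyp27a1, and 1 gene, Slc10a1, had more than 1 probe. All 11 probes were well above background on 21 of 21 arrays and 0 were saturated on any array.

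Livers came from adult male C57BL/6J mice that ate a normal-fat diet for 3 weeks and then a high-fat diet for 12 weeks. The HF group (11 livers) received the high-fat diet alone and the HF-Q group (10 livers) the same diet with 0.33% (w/w) quercetin, a plant flavonoid, so that both groups shared the strain, the sex and the high-fat diet. There was no group on the normal-fat diet among these arrays, and mice had fasted for 2 to 4 hours, with the clock time of sampling not given in the sources used here. RNA of each liver (Cy5) was hybridised against a pool of all livers (Cy3). The values below are log2 ratios of liver to pool, and a difference of 1 between livers is a doubling. The liver was in Cy5 on every array, and 0 need not mean equal to the pool. Alb, for example, averaged 0.73 in HF and 0.69 in HF-Q. The sign of a ratio is therefore not read as above or below the pool, and only differences between livers are compared.

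Hepatocytes convert cholesterol to bile acids by a classical route, which Cyp7a1 opens in the endoplasmic reticulum, and by an alternative route, in which Cyp27a1 in mitochondria makes an oxysterol that Cyp7b1 hydroxylates. Bile acids are joined to taurine by Baat, pumped across the canalicular membrane by Abcb11 and taken back from portal blood by Slc10a1, while the half-transporters Abcg5 and Abcg8 pair to secrete cholesterol itself into bile. Bile acids act through the nuclear receptor FXR (Nr1h4) and its target Nr0b2 (SHP), a repressor, to hold back Cyp7a1.

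The sequences that the results below turn on are shown first. The first 30 of 60 bases of each probe, from the 5′ end, are given for the 3 hydroxylases that varied most between livers and for both probes of Slc10a1, which did not measure alike. Capitals mark the first 20 bases of the second Slc10a1 probe, a stretch that 2 other probes on the array also hold.
Cyp7a1 probe: ttgtttttaaaacaagttttatgactccct
Cyp8b1 probe: aaacctggaaaaagacggcataagctgttg
Cyp7b1 probe: ttggttgagatcaatccagttggttttggg
Slc10a1 probe A_52_P69109: cctacaaaggcattatgttatcactcgtca
Slc10a1 probe A_55_P1954987: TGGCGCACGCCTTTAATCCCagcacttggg

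On mouse build NCBI37 (mm9), as the array files give it, these probes lie on the minus strand at chr4:6193456-6193515 (Cyp7a1), chr9:121824595-121824654 (Cyp8b1), chr3:17972286-17972345 (Cyp7b1), chr12:82061470-82061529 (A_52_P69109) and chr12:82056539-82056598 (A_55_P1954987). The exon or untranslated region under each probe was not analysed here. The second Slc10a1 probe reads like a B1 short interspersed repeat, a family with many copies in mouse transcripts. It shared 20 bases or more with 3 other kept probes, whose values followed it across livers (r = 0.71 to 0.80, median 0.78), while its r with the first Slc10a1 probe was 0.36 over 19 livers, and it was brighter than 99.4% of kept probes. None of the other 10 member probes shared 20 bases with another probe. The first probe, A_52_P69109, is therefore the one described as Slc10a1 below unless the repeat probe is named, although the rule that the brightest probe stands for a gene picked the other.

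Abcg5 and Abcg8 lie head to head, and the stretch between their annotated starts is shown because both genes followed each other across livers. Upstream sequence of Abcb11, a textbook FXR target, is shown beside it. Capitals mark matches to the GATA motif AGATAA (here on the minus strand, as TTATCT) and to the FXR element IR-1, which is AGGNCA and TGNCCT with 1 free base between them.
Abcg5-Abcg8 intergenic: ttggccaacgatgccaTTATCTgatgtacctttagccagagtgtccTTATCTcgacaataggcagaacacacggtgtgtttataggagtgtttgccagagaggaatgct
Abcb11 upstream: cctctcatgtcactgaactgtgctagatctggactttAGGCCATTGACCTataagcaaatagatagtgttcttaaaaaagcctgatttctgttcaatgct

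These are RefSeq sequences on GRCm38.p6, at chr17:84683012-84683120 (plus strand, 109 bases) and chr2:69342617-69342716 (minus strand, 100 bases). Both strands were searched, and motifs were counted without regard to overlap between different motifs. Of 32851 windows of 250 bases upstream of a gene start, 9.99% held the GATA motif and 0.0852% held IR-1. Of the 10 members, 7 had such windows, 9 in all. Cyp7a1, Cyp7b1 and Baat had none, so no motif was searched for in them. The windows of Abcg5 and Abcg8 overlap and hold the same 2 GATA sites, which count as 1 stretch. Of the other motifs, IR-1 was in the window of Abcb11, the LRH-1 motif CAAGGNCA (5.53% of windows) in that of Cyp8b1, and the LXR element DR4, AGGTCA repeated after a spacer of 4 free bases (0.0152% of windows), in 0 of 9. A match is a run of letters and not a measured binding site.

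In limma with Benjamini-Hochberg adjustment, 0 of 19718 genes (0%) passed an adjusted p of 0.05 for HF-Q against HF, and 0 of the 10 members did. The lowest adjusted p of any gene was 0.382, and 1169 genes (5.93%) had an unadjusted p under 0.05, with 1 of the 10 members among them, Cyp27a1. With array weights 1 gene passed, and on slide 2 alone 1 passed. Without HF replicate 2 there were 4 and without HF-Q replicate 10 there was 1, and 0 of these calls were members. Livers of the 2 diets overlapped for all 10 members, against 0.00507% of genes whose groups did not. Differences were positive for 6 members and negative for 4, where 47% of all genes were higher and 53% lower in HF-Q. The members' median difference was 0.084 on the log2 scale and that of all genes -0.0043. In description, the members spread more within a diet than the median gene: 9 of 10 had a residual SD above its 0.126, and their median was 0.285. In that median Slc10a1 counts by its repeat probe (residual SD 0.238), while its other probe had a smaller one, 0.187. Wide spread was not particular to the members. The SD in HF and HF-Q was 0.86 and 0.43 for Sqle, a sterol synthesis gene, and 0.25 and 0.51 for Nr0b2. It was narrower for Nr1h4, at 0.13 and 0.12. Genes of like brightness were not compared.

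Means of a list of pancreatic acinar markers, 5 of 9 genes measured, set 2 HF livers apart: 2.13 in HF replicate 11 and 1.53 in HF replicate 5, against -0.13 or below in the other 19. HF replicate 11 had the highest Abcg5 and Abcg8 and the lowest Cyp8b1 of all livers, and HF replicate 5 had the highest Cyp7a1. Without both, in a fit added after the data were seen, 0 genes passed in limma and the differences kept their signs, at 0.49 for Cyp7a1, 0.26 for Cyp8b1, 0.12 for Cyp27a1, 0.25 for Cyp7b1, -0.11 for Akr1d1, 0.039 for Baat, 0.10 for Abcb11, -0.22 for Abcg5 and -0.044 for Abcg8. Over the remaining livers r was 0.91 for Abcg5 with Abcg8, -0.71 for Cyp7a1 with Nr0b2, 0.83 for Cyp7b1 with Hsd3b5, -0.76 and -0.60 for Cyp8b1 with Abcg5 and Abcg8, -0.68 for Cyp7b1 with Akr1d1, -0.49 for Baat with Abcg8, and 0.59 and 0.57 for Slc10a1 with Abcg5 and Abcg8. The limma p-values set a difference between diets against the spread between mice, and the number of arrays limits their precision. The permutation p-values further below are for 2 genes varying together across arrays.

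**Figure D1:**
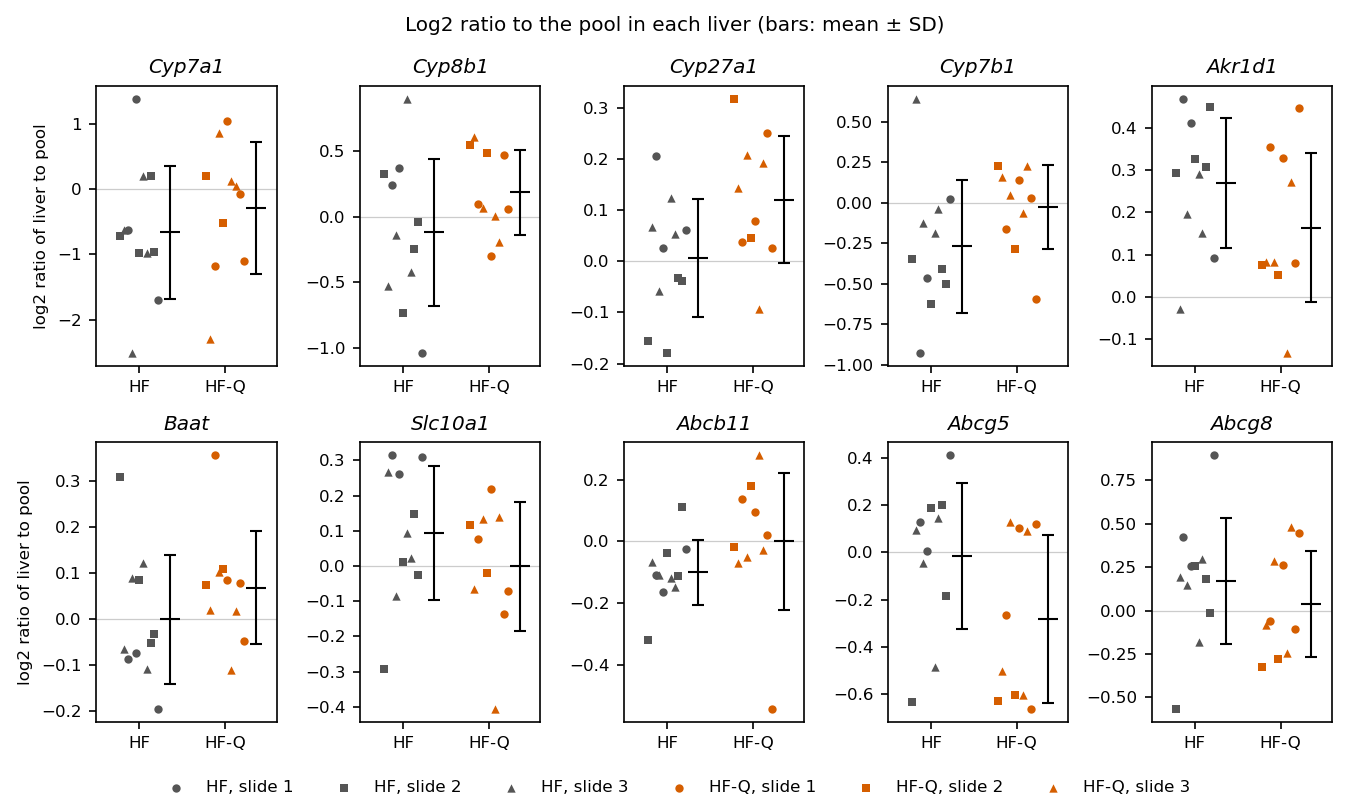
Log2 ratio of each liver to the pool (vertical axes, each with its own scale) for 10 genes in 11 HF (grey) and 10 HF-Q (orange) livers, with symbols for the 3 slides and bars for the mean ± SD. Cyp7a1 spans -2.51 to 1.38, and the diets overlap in every panel. Slc10a1 is shown by its probe A_52_P69109.

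Cyp7a1, the rate-limiting hydroxylase of the classical route, varied more between livers than nearly any gene on the array. Its log2 ratio was -2.51 at the lowest, -0.72 at the median and 1.38 at the highest in HF livers, and -2.29, -0.017 and 1.04 in HF-Q livers. The highest and the lowest liver were both HF, 14.9-fold apart, and 99.9% of genes had a smaller residual SD. The SD was 1.02 in HF and 1.01 in HF-Q, and the HF-Q mean stood 0.37 above the HF mean (SE 0.40, 95% interval -0.46 to 1.20). That difference lay well inside the spread between livers (limma adjusted p = 0.976, unadjusted p = 0.363). As a ratio the interval runs from 0.728-fold to 2.30-fold, which includes a doubling. Within slides 1, 2 and 3 the difference was -0.019, 0.45 and 0.66, so its direction was not the same on slide 1.

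Cyp8b1, the hydroxylase that commits sterols to cholic acid, had HF values of -1.04, -0.14 and 0.90 (lowest, median, highest) and HF-Q values of -0.30, 0.083 and 0.61. HF livers were the more scattered (SD 0.56 against 0.32), with 4 HF livers below every HF-Q liver and 1 above every one. The difference was 0.30 (SE 0.18, 95% interval -0.075 to 0.68, limma adjusted p = 0.912), or 1.24-fold. It was 0.22, 0.69 and 0.17 on slides 1, 2 and 3.

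Akr1d1 encodes the reductase that shapes the sterol ring for both routes. Its ratios were -0.028, 0.29 and 0.47 in HF and -0.13, 0.083 and 0.45 in HF-Q. Of the HF-Q livers, 3 of 10 lay above the HF median. The difference was -0.10 (SE 0.069, 95% interval -0.25 to 0.038, limma adjusted p = 0.940), with -0.021, -0.28 and -0.077 on the 3 slides.

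On the alternative route, Cyp27a1, which also oxidises the side chain in the classical route, had narrow groups: -0.18, 0.025 and 0.21 in HF and -0.094, 0.11 and 0.32 in HF-Q. Of the HF-Q livers 3 exceeded every HF liver and 2 HF livers lay below every HF-Q liver. Its difference of 0.11 (SE 0.052, 95% interval 0.0065 to 0.22) had the lowest p of the members and did not pass after adjustment (limma adjusted p = 0.822, unadjusted p = 0.0386). On slide 1 it was 0.00034, and on slides 2 and 3 it was 0.28 and 0.066. Cyp27a1 had the tightest residual SD of the members, 0.119, with 43.2% of genes tighter. Its values were averaged over 10 spots per array, against 1 spot for each other member probe. Averaging can narrow the spread, and how far it did so here was not tested.

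Cyp7b1, the oxysterol hydroxylase, is known as a gene that male livers express more than female ones. It stood at -0.93, -0.35 and 0.64 in HF and at -0.59, 0.039 and 0.23 in HF-Q. Although 9 of 10 HF-Q livers lay above the HF median, the highest liver of all was HF replicate 2, and 2 HF livers lay below every HF-Q liver. The difference was 0.24 (SE 0.14, 95% interval -0.046 to 0.53, limma adjusted p = 0.885), and on slides 1, 2 and 3 it was 0.31, 0.44 and 0.017.

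Set against each other within a liver, the routes gave wide ranges in both diets. The log2 ratio of Cyp7a1 minus that of Cyp7b1 ran from -2.39 to 1.85 in HF (mean -0.40, SD 1.18) and from -2.45 to 0.89 in HF-Q (mean -0.27, SD 0.95). For Cyp8b1 minus Cyp7b1 the range was -1.17 to 1.17 in HF and -0.44 to 0.77 in HF-Q. For Cyp8b1 minus Cyp27a1, which acts in both routes, it was -1.10 to 0.77 in HF and -0.38 to 0.47 in HF-Q. These are differences of ratios to the pool and say nothing of which transcript is the more abundant.

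Baat joins bile acids to taurine in the mouse. Its HF values were -0.20, -0.051 and 0.31 and its HF-Q values -0.11, 0.077 and 0.36. The HF-Q mean was higher by 0.069 (SE 0.057, 95% interval -0.048 to 0.19, limma adjusted p = 0.971), and the difference was 0.24, 0.014 and -0.0025 on the 3 slides.

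Slc10a1 (NTCP) takes bile acids up from the blood with sodium. By the probe A_52_P69109 it was -0.29, 0.093 and 0.32 in HF and -0.41, 0.028 and 0.22 in HF-Q, with 4 HF livers above every HF-Q liver. The difference was -0.094 (SE 0.077, 95% interval -0.25 to 0.065, limma adjusted p over all probes 0.982). The repeat probe, which the fit dropped on 1 array of each diet, gave -0.046 (SE 0.10, limma adjusted p = 0.999).

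Abcb11 (BSEP) pumps bile acids into the canaliculus. Its HF values were -0.32, -0.11 and 0.11 and its HF-Q values -0.54, 0.00051 and 0.28. HF-Q livers held both the 3 highest values and the lowest. The difference was 0.10 (SE 0.071, 95% interval -0.047 to 0.25, limma adjusted p = 0.948), positive on all slides at 0.026, 0.17 and 0.14.

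Abcg5 had the largest negative difference of the members. HF livers stood at -0.63, 0.095 and 0.41 (lowest, median, highest) and HF-Q livers at -0.66, -0.38 and 0.13. In HF-Q 6 of 10 livers lay at -0.26 or below and the other 4 between 0.09 and 0.13, and 4 HF livers exceeded every HF-Q liver. The difference was -0.27 (SE 0.13, 95% interval -0.54 to 0.0095, limma adjusted p = 0.858, unadjusted p = 0.0578), or 0.832-fold, and it was -0.36, -0.51 and -0.15 on slides 1, 2 and 3.

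Abcg8, its partner, was at -0.57, 0.19 and 0.90 in HF and at -0.33, -0.072 and 0.48 in HF-Q. The difference was -0.13 (SE 0.13, 95% interval -0.41 to 0.14, limma adjusted p = 0.976). On slides 1, 2 and 3 it was -0.39, -0.27 and -0.0036. In bulk liver, fewer cells of a type and less RNA per cell cannot be told apart for any of these genes.

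**Figure D2:**
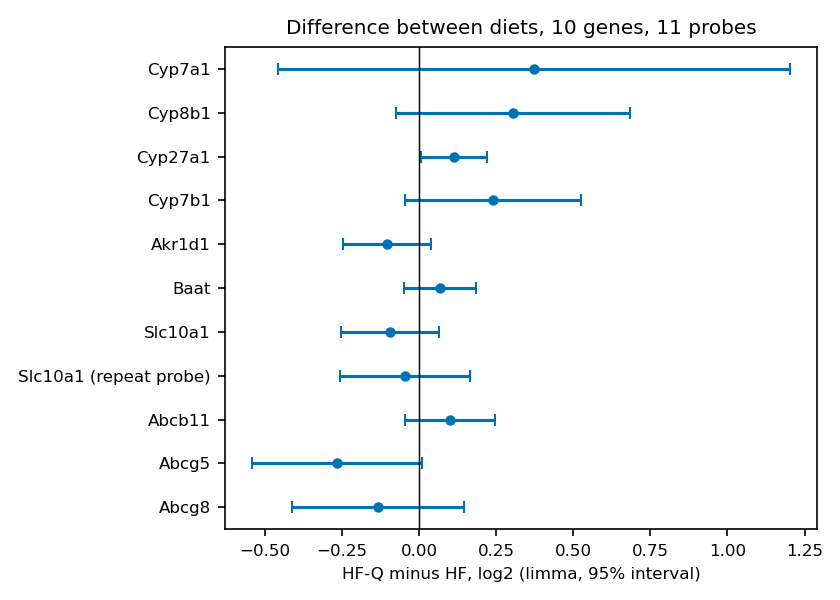
HF-Q minus HF on the log2 scale (horizontal axis) for the 11 probes of the 10 genes, with limma 95% intervals. Every interval but that of Cyp27a1 (0.0065 to 0.22) includes 0, and the widest is that of Cyp7a1, -0.46 to 1.20.

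Since the livers differed more within diets than between them, the members were compared across the 21 livers. A set of 12 pairs was fixed by pathway position, or by a partner that was a repressor, a clock gene or a male-biased gene. Of these 12 pairs, 4 passed an adjusted p of 0.05 in a two-sided permutation test with 100000 resamples, and 3 of them are described here. The closest was Abcg5 with Abcg8, at r = 0.91 and rho = 0.84 (permutation p = 1e-05, the smallest it can give, adjusted p = 0.00012 for both). The pair held at r = 0.92 in HF and 0.94 in HF-Q, at 0.91, 0.95 and 0.94 on slides 1, 2 and 3, and at 0.92 without the 2 livers farthest from the Abcg5 median.

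Cyp7a1 ran against Nr0b2, its repressor, at r = -0.68 and rho = -0.65 (permutation p = 0.00054 and 0.00163, adjusted p = 0.00162 and 0.00489). The r was -0.63 without the 2 farthest livers, -0.73 in HF, -0.72 in HF-Q, and -0.69, -0.74 and -0.79 on the 3 slides. With arrays centred on their median in place of loess it was -0.20 and did not pass, so this relation depended on the normalization. Cyp8b1, whose gene Nr0b2 also represses, had r = -0.056 with it (permutation p = 0.809, adjusted p = 0.836).

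Cyp7b1 followed Hsd3b5, a steroid dehydrogenase of male mouse liver, at r = 0.83 and rho = 0.78 (permutation p = 2e-05 and 5e-05, adjusted p = 0.00012 and 0.0003). The r was 0.73 without the 2 farthest livers, 0.88 in HF and 0.78 in HF-Q, and 0.89, 0.81 and 0.78 on the 3 slides. The male-biased list, which holds Hsd3b5, had 9 of 11 measured genes higher in HF-Q (median 0.15) and the female-biased list 0 of 6 (median -0.42), with 0 genes of either past the threshold. The part of these lists in the Cyp7b1 values was not tested.

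**Figure D3:**
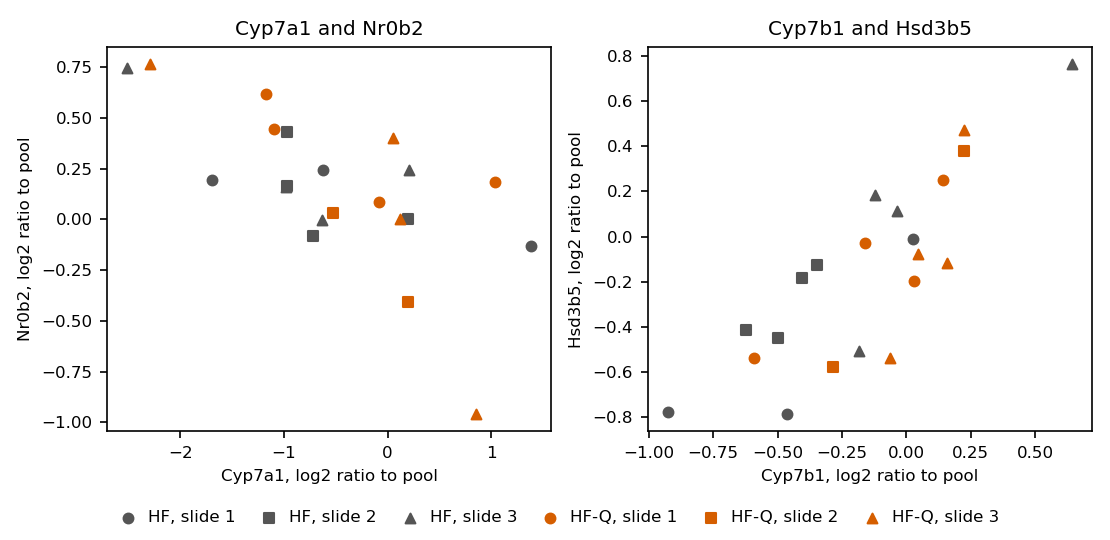
Each point is a liver, placed by its log2 ratio to the pool for 2 genes, with colours for diet and symbols for slide. Cyp7a1 opposes Nr0b2 (r = -0.68), and Cyp7b1 follows Hsd3b5 (r = 0.83), in HF and HF-Q livers alike in sign.

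The steps of the pathway were not tied to each other in the same way. Cyp7a1 and Cyp8b1, successive on the classical route, had r = 0.22 (permutation p = 0.332, adjusted p = 0.498), 0.53 in HF and -0.51 in HF-Q, a contrast that was not tested. Cyp7a1 and Cyp7b1, at the head of the classical route and in the alternative one, had r = 0.048 (permutation p = 0.836, adjusted p = 0.836). Cyp8b1 and Cyp7b1 had r = -0.11 (permutation p = 0.63, adjusted p = 0.826). Cyp27a1 and Cyp7b1, in sequence on the alternative route, had r = 0.38 (permutation p = 0.0886, adjusted p = 0.213), while rho was 0.58 (permutation p = 0.00664, adjusted p = 0.0159). That pair stood at r = -0.060, 0.92 and 0.26 on slides 1, 2 and 3. Baat and Slc27a5, the ligase that activates bile acids before conjugation, had r = 0.092 over 20 livers (permutation p = 0.688, adjusted p = 0.826), -0.67 in HF and 0.69 in HF-Q, which was not tested either. Export and uptake, Abcb11 with Slc10a1, had r = 0.27 over 19 livers by the repeat probe (permutation p = 0.265, adjusted p = 0.498) and -0.059 by the other probe.

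All 45 pairs of members were then compared, a family added after the data were seen. Of these, 7 passed an adjusted p of 0.05, 3 positive and 4 negative. Besides Abcg5 with Abcg8, Cyp8b1 ran against Abcg5 (r = -0.77, rho = -0.73, permutation p = 4e-05 and 0.00026, adjusted p = 0.0009 and 0.00585). It ran against Abcg8 as well (r = -0.68, rho = -0.61, permutation p = 0.00075 and 0.00353, adjusted p = 0.00844 and 0.0354). Without the 2 livers farthest from the Cyp8b1 median these were -0.72 and -0.53. With Abcg5 the r was -0.78 in HF and -0.77 in HF-Q, and -0.71, -0.93 and -0.73 on the 3 slides.

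Cyp7b1 ran against Akr1d1 (r = -0.70, rho = -0.69, permutation p = 0.00039 and 0.00084, adjusted p = 0.00585 and 0.0126), at -0.93 in HF and -0.33 in HF-Q and at -0.60 without the 2 farthest livers. Baat ran against Abcg8 (r = -0.60, permutation p = 0.00376, adjusted p = 0.0242), at -0.87 in HF, -0.14 in HF-Q and 0.010 on slide 3, and its rho of -0.50 did not pass (permutation p = 0.0228, adjusted p = 0.128). Slc10a1 followed Abcg5 and Abcg8 (r = 0.64 and 0.64, permutation p = 0.00149 and 0.00181, adjusted p = 0.0134 and 0.0136), with rho of 0.61 and 0.57 (permutation p = 0.00393 and 0.0075, adjusted p = 0.0354 and 0.0482). With arrays centred on their median in place of loess, Cyp8b1 had r = -0.30 with Abcg5 and -0.32 with Abcg8, which did not pass. Under the same centring Cyp7b1 with Akr1d1 was 0.18 and Baat with Abcg8 was 0.20, so the sign of both turned. The pairs of Slc10a1 with Abcg5 and Abcg8 were not run under that centring by the probe used here. Whether they depend on the normalization was therefore not tested.

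**Figure D4:**
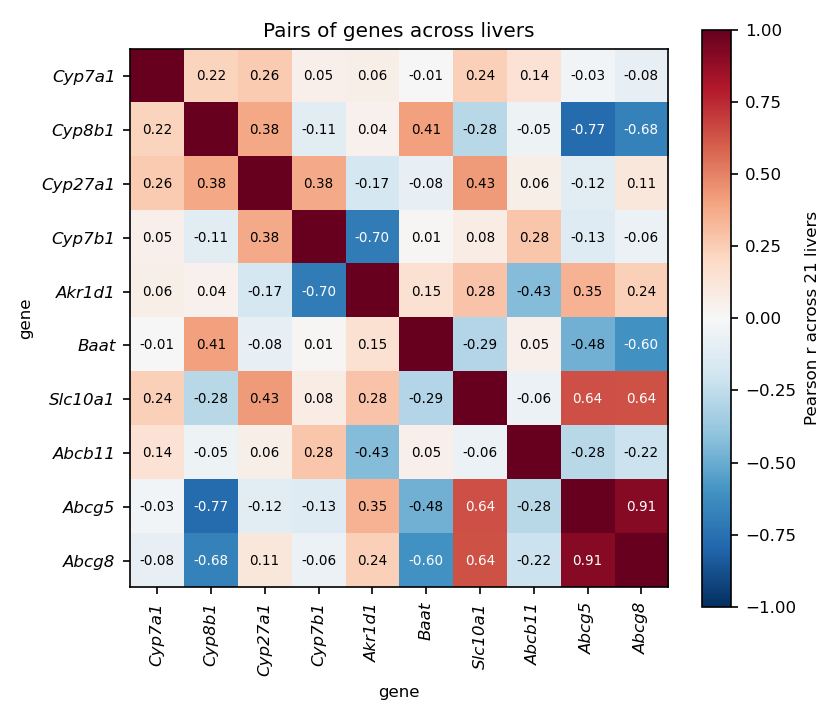
Pearson r across 21 livers for each pair of the 10 genes (rows and columns), from blue (negative) to red (positive), with the value in each cell. The Abcg5 and Abcg8 columns show 0.91 with each other, -0.77 and -0.68 with Cyp8b1 and 0.64 with Slc10a1, while the Cyp7a1 row stays between -0.08 and 0.26.

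The sterol carriers Abcg5 and Abcg8 were also set beside the circadian clock genes. Livers were split at the largest gap of Dbp, an output gene of the clock. That gap, 0.68, lay between 10 livers from -2.80 to -0.70 and 11 livers from -0.017 to 0.88. The clock gene Arntl lay from 0.33 to 1.17 in the first set and from -1.74 to -0.40 in the second. No label assigns livers to these sets, so no mean or test over them is given. The low-Dbp livers numbered 4 of 11 in HF and 6 of 10 in HF-Q, and 2 of 7, 4 of 6 and 4 of 8 on slides 1, 2 and 3.

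Abcg5 stood between -0.66 and -0.046 in the 10 low-Dbp livers and between 0.0052 and 0.41 in the other 11. Abcg8 stood between -0.57 and 0.15 in the first and between 0.18 and 0.90 in the second, so neither sterol carrier overlapped between the sets. That was so for 67 of 19718 genes (0.34%), and since the sets were drawn from these livers it is a description only. Cyp8b1 overlapped, at -0.14 to 0.90 in the first and -1.04 to 0.38 in the second. Cyp7a1 overlapped widely, at -2.51 to 0.21 and -1.69 to 1.38, as did the carrier Abcb11, at -0.32 to 0.28 and -0.54 to 0.095. The carrier Slc10a1, at -0.41 to 0.12 and -0.072 to 0.32, overlapped only between -0.072 and 0.12.

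Correlations are also given within each set of 10 and 11 livers, as a description. The sets were cut on Dbp, whose r over all livers was 0.85 with Abcg5 and 0.80 with Abcg8. Such a cut narrows the range of genes that follow Dbp and can by itself lower r inside a set. With Dbp, Abcg5 had r = 0.20 in the low set and 0.26 in the high set, Abcg8 0.24 and 0.25, Cyp8b1 0.13 and -0.066, and Cyp7a1 -0.042 and -0.080. Abcg5 and Abcg8 kept to each other inside the sets, at 0.78 and 0.71. Cyp8b1 with Abcg5 was -0.62 and -0.76, Cyp8b1 with Abcg8 -0.39 and -0.38, and Cyp7b1 with Akr1d1 -0.62 and -0.82. Slc10a1 with Abcg5 was 0.28 and 0.12, with Abcg8 0.31 and 0.24, so those values inside the sets were below the pooled 0.64. How far the cut itself lowered them was not tested.

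With Dbp as a covariate, a fit added after the data were seen, the HF-Q difference of Abcg5 was -0.18 (SE 0.071, limma adjusted p = 0.828) against -0.27 without it. For Abcg8 it was -0.052 against -0.13, and for Cyp8b1 0.23 against 0.30. Dbp itself averaged -0.37 ± 1.37 (SD, n = 11) in HF and -0.77 ± 1.19 (SD, n = 10) in HF-Q, which did not pass (limma adjusted p = 0.989). The part of the clock genes in these results was not tested further.

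**Figure D5:**
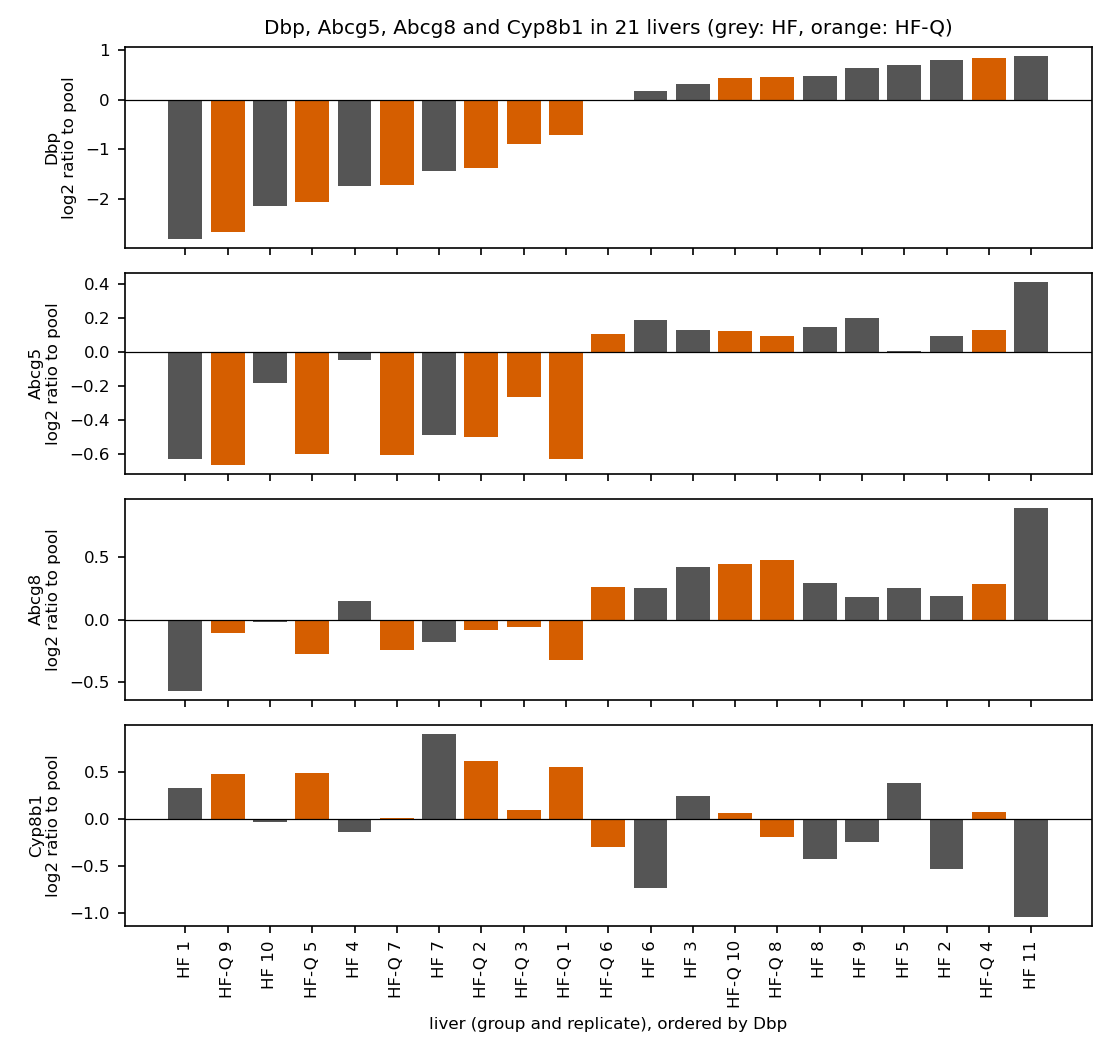
Log2 ratio to the pool (vertical axes) of Dbp, Abcg5, Abcg8 and Cyp8b1 in 21 livers, ordered by Dbp from left to right, with HF in grey and HF-Q in orange. The 10 livers on the left have Abcg5 at -0.046 or below and the 11 on the right have it at 0.0052 or above, and both sides hold livers of both diets.

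Genes most similar to 4 of the members were found by r over 21 livers among 13691 genes with a symbol and a value on every array, as a description with no test. Only ratios after loess were ranked. Nearest to Cyp7a1 were the nuclear import factor Kpna2 (0.83), Otud6b (0.80) and the ribosome assembly factors Ltv1 (0.75) and Noc4l (0.75), and the most opposed were Zscan12 and Zkscan6 (both -0.78). On slide 2 alone these stood, in the same order, at 0.55, 0.073, 0.78 and 0.61, and at -0.10 and -0.44. Nearest to Cyp8b1 were Ackr2 (0.88), Tfpi2 (0.80), Castor2 (0.80) and Pfkfb1 (0.78), and the most opposed Irf2 and Xdh (both -0.82). Nearest to Cyp7b1 were the complement genes C8b (0.92) and C6 (0.90) with the serpins Serpina11 (0.90) and Serpina9 (0.84), against Vldlr (-0.85) and Rdh16 (-0.84). Nearest to Abcg8, after Abcg5, were Ngef (0.87), Inmt (0.86) and the clock gene Per1 (0.86), against Leo1 (-0.87) and Ppa1 (-0.83).

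Among the regulators of these genes, 0 of 21 passed the threshold, 6 were higher and 15 lower in HF-Q, and the list's median was -0.042. Nr1h4, the bile acid receptor FXR, had the lowest p. Its values were -0.28, -0.15 and 0.15 (lowest, median, highest) in HF and -0.52, -0.27 and -0.11 in HF-Q, a difference of -0.20 (SE 0.055) that did not pass (limma adjusted p = 0.685, unadjusted p = 0.00148). The diets overlapped between -0.28 and -0.11. The xenobiotic receptor Nr1i3 differed by -0.18 (SE 0.064, limma adjusted p = 0.771) and the fatty acid receptor Ppara by -0.23 (SE 0.10, limma adjusted p = 0.821).

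The other regulators named by rule had small differences: -0.061 for Nr0b2, -0.027 for Nr5a2 (LRH-1), 0.0023 for Hnf4a, -0.042 for Nr1h3 (LXR alpha), 0.010 for Fgfr4 and -0.048 for its co-receptor Klb. With median centring, 12 of the 21 regulators were higher in HF-Q, so the split of signs depended on the normalization, which moved the median of all genes from -0.0043 to 0.024.

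Enzymes that work beside the members were 18 of 19 measured, with 2 higher, 16 lower, 0 past the threshold and a median of -0.039. With median centring 11 of 18 were higher. The lowest p values were for the cholesterol transfer protein Star, at -0.12 (SE 0.040, limma adjusted p = 0.750, and -0.30 in the scanner software's processed signals), the peroxisomal thiolase Scp2, at -0.10 (SE 0.048, limma adjusted p = 0.822), and Acnat2, a homologue of Baat, at -0.42 (SE 0.21, limma adjusted p = 0.861). The dehydrogenase Hsd3b7 differed by -0.024, Slc27a5 by -0.099, the oxysterol hydroxylase Cyp39a1 by -0.034 and Cyp2c70, which makes muricholic acids, by -0.027. Ch25h did not pass the filter on dim probes.

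Of 15 carriers of bile acids and organic anions 14 were measured, with 7 higher, 7 lower, 0 past the threshold and a median of -0.015. The uptake carrier Slco1a4 differed by -0.52 (SE 0.18, limma adjusted p = 0.752), Slco1b2 by -0.21 (SE 0.093, limma adjusted p = 0.819) and the sodium-dependent carrier Slc10a2 by 0.17 (SE 0.074, limma adjusted p = 0.811). The canalicular phospholipid flippase Abcb4 differed by -0.055.

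Of 23 genes of sterol handling 22 were measured, with 13 higher, 9 lower, 0 past the threshold and a median of 0.030. Differences in Sqle (0.70, SE 0.27, without HF replicate 1, which had no value, limma adjusted p = 0.790) and Insig1 (0.26, SE 0.11, limma adjusted p = 0.790) were positive. Sqle encodes a monooxygenase of sterol synthesis, and Insig1 a membrane protein that holds back the processing of SREBP in the endoplasmic reticulum.

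In the lists for clock, sex-biased and zonal genes 0 genes passed the threshold. Among 13 clock genes measured 4 were higher and 9 lower, the lowest p values being those of Hlf (-0.20), Nr1d1 (-0.17) and Cry2 (-0.16). The male-biased genes of lowest p were Mup20 (0.37), C6 (0.25) and Cyp4a12b (0.30), with Hsd3b5 at 0.10, and the female-biased ones Cyp2b13 (-0.75), Cyp2b9 (-0.76) and Hao2 (-0.37). In the scanner software's processed signals these 3 stood at -2.38, -2.76 and -1.39. Of 12 pericentral genes, from the zone around the central vein where Cyp7a1 is known to be expressed, 2 were higher and 10 lower (median -0.10), led by Lect2 (-0.15), Rgn (-0.14) and Rhbg (-0.35). With median centring 4 of 12 were higher. Of 10 periportal genes 5 were higher and 5 lower, led by Hsd17b13 (-0.092), Cps1 (0.069) and Cyp2f2 (0.049), and with the slide as a block 2 were higher.

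Markers of cells other than hepatocytes were checked in the same livers. The 7 hepatocyte markers present on the array were above background on 21 of 21 arrays, and their mean ratio lay between 0.13 and 0.46 in HF and 0.031 and 0.48 in HF-Q. Means of the Kupffer cell list lay between -0.60 and 0.66 in HF and -0.60 and -0.030 in HF-Q, those of the stellate cell list between -0.18 and 0.084 and between -0.14 and 0.026, and those of the sinusoidal endothelial list between -0.11 and 0.085 and between -0.13 and 0.045. Those of the bile duct list lay between -0.11 and 0.20 and between -0.12 and 0.16, with Krt7 above background on 5 and Epcam on 8 of 21 arrays. The pancreatic acinar list, described above, lay between -0.91 and 2.13 in HF and between -0.82 and -0.13 in HF-Q. The part of these cells in the members' values was not tested.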

How the data were processed

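Liver RNA of 21 mice was measured on 2-colour Agilent arrays, with 3 further arrays excluded by the authors for uneven hybridisation, per the labels. The authors deposited scanner output made with Agilent Feature Extraction 10.7.3.1, per the submitters' processing notes, which gives spot and background intensity for both dyes, not normalized, per the file headers. They also deposited a table of log2 values whose columns all had a median of 7.92 and followed the Cy5 signal (r = 0.973 to 0.989), and it was an alternative only, since the sources used here do not name the step that equalised them.

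Background was corrected by normexp (offset 50) and ratios by loess within arrays in limma 3.58.1 (R 4.3.3), which draws the ratios of dim genes toward 0. Control and uneven spots were left out, spots of a probe averaged, probes kept if above background on at least 10 of 21 arrays (26291 of 55681), and the brightest kept probe stood for its gene. The diets were compared in limma (two-sided, HF-Q minus HF), adjusting p over all 19718 genes by Benjamini-Hochberg, with 0.05 as the threshold. The fit and the permutation test were tested on simulated data. The members and lists were chosen with earlier results of these data known. The naming rule took all members, a panel of 17 genes, the 3 genes of lowest p per pathway list, and the genes most and least similar to 4 members, and a few genes under it are not reported here, though the tests and counts include them. Of the arrays, 44.2% to 51.3% of probes were above background, and depth in the sense of counts does not apply. The 3 slides held 3 and 4, 4 and 2, and 4 and 4 HF and HF-Q arrays. Alternatives changed background, normalization, dye, filter, probe, slide, replicate block, weights and each array left out.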

Additional observations from a re-analysis of the deposited data

Results flagged for a closer look

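In groups of 10 HF-Q livers, the highest or lowest liver was set against its neighbour for 26 genes, and 3 stood apart by more than Dixon's critical value of 0.466. Chance alone flags about 1 in 20 such groups. Baat was 0.36 in HF-Q replicate 3 with the next liver at 0.11. Abcb11 was -0.54 in HF-Q replicate 10 with the next at -0.069. Cyp2c70 was -1.12 in HF-Q replicate 7 with the next at -0.28.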

How the results depend on the processing

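The other Slc10a1 probe and the fit without both HF replicate 2 and HF-Q replicate 7 were chosen after seeing the data. The count of members past the threshold was 0 under all alternatives run. Genes past it were 1 on slide 2 alone and 1 with array weights, and 0 to 4 with each array left out. Of the members, Cyp7a1 turned to -0.019 on slide 1 and Baat to -0.0025 on slide 3. Slc10a1, by the repeat probe, turned to 0.013 from Cy5 alone, 0.0033 in the deposited table, 0.19 on slide 2, 0.030 with array weights and 0.027 without both HF replicate 2 and HF-Q replicate 7, and ran from -0.086 to 0.0099 with each array left out (0.0021 without HF replicate 2). No other member turned its direction, but single livers moved some differences by over 1.5 times. Cyp7a1 was 0.19, 0.58, 0.60, 0.25 and 0.23 without HF replicates 4 and 5 and HF-Q replicates 2, 4 and 6, Baat 0.037 without HF-Q replicate 3, Abcb11 0.16 without HF-Q replicate 10, and Abcg8 -0.21 and -0.062 without HF replicates 1 and 11.

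With median centring r was 0.47 for Cyp7a1 and Cyp8b1, 0.68 for Cyp27a1 and Cyp7b1 and 0.84 for Baat and Slc27a5. For Abcb11 and Slc10a1, by the repeat probe, it was 0.55. All of these were now past the threshold, while Cyp7a1 and Nr0b2, at -0.20, were no longer past it. Under this centring r turned to 0.19 for Cyp8b1 and Cyp7b1, 0.14 for Cyp8b1 and Nr0b2, 0.18 for Cyp7b1 and Akr1d1 and 0.20 for Baat and Abcg8. The cause was not tested. With group means removed r was -0.018 for Cyp7a1 and Cyp7b1, and with the other Slc10a1 probe -0.059 for Abcb11 and Slc10a1. With each array left out r ran from -0.25 to 0.028 for Cyp8b1 and Cyp7b1 and from -0.18 to 0.030 for Cyp8b1 and Nr0b2. For Cyp27a1 and Cyp7b1 it ran from 0.29 to 0.60 (past the threshold without HF replicate 3). The range was -0.18 to 0.29 for Baat and Slc27a5 and -0.019 to 0.15 for Cyp7a1 and Cyp7b1. For Abcb11 and Slc10a1, by the repeat probe, it was -0.077 to 0.44. The pairs Abcg5 and Abcg8, and Cyp7b1 and Hsd3b5, passed under all alternatives in which they were tested.

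Replicate numbers did not pair the livers: 1 of 10 same-numbered pairs had r over 0.1 (range -0.34 to 0.16), and 0 of 10 HF-Q livers correlated best with their own number. With the replicate block 0 genes passed, Abcg5 was -0.22, Cyp7b1 0.27 and Cyp7a1 0.27. The members' probes were above background on 21 of 21 arrays, but some signals were low. The processed Cy5 signal of Cyp7a1 was 49.05 in HF replicate 4 and 49.19 in HF-Q replicate 2, its lowest livers. That of Abcg8 ran from 115.7 in HF replicate 1 to 434.9 in HF replicate 11. The offset draws ratios of dim genes toward 0, and how far this held for these genes was not tested.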

Other observations

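The gene most similar to Cyp8b1, Ackr2, which encodes a scavenging chemokine receptor and is named Ccbp2 in the array files, is also its neighbour on chromosome 9 and is transcribed toward it in the annotation. The array holds 2 Ackr2 probes. On mouse build NCBI37 the one at chr9:121820097-121820156 was above background on 21 of 21 arrays and had r = 0.88 with Cyp8b1 over the 21 livers (rho 0.88, and 0.90, 0.92 and 0.95 on slides 1, 2 and 3). The other, at chr9:121818254-121818313, was above background on 0 of 21 arrays and had r = 0.18. Ackr2 was not searched for by name beforehand, and whether the first probe reads transcripts of Cyp8b1 was not tested.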
